A study of Mus musculus with 9 samples.

Results

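The machinery that keeps endogenous retroviruses silent through heterochromatin was followed in mouse ESCs with and without DNMT1. It was represented by 10 genes chosen by name, namely *Trim28*, *Setdb1*, *Zfp57*, *Atrx*, *Daxx*, *Ehmt1*, *Ehmt2*, *Cbx5*, *Suv39h1* and *Hells*, out of 15074 genes measured by RNA-seq. All 10 were listed, and every gene listed had a value above 0 in all 9 libraries. All 10 also passed the minimum of 1 FPKM in some library that was met by 13288 genes. Their levels were set beside those of IAPEz-int, the internal part of an intracisternal A-particle retrotransposon family, which had 426 copies among the 38385 repeat copies listed. No listed copy had a value of 0 in any library, so copies without signal in some library, WT included, are not covered. In the 3 contrasts between lines, 0 of the 10 genes passed the test, where between 0.00753% and 4.82% of all genes tested did. From day 0 to day 4, *Zfp57* and *Trim28* fell and *Suv39h1* rose, which is 3 of 10 members where 25.8% of all genes tested passed. The fall of *Trim28* is an average over the lines and was smallest in WT, at -0.13 in log2(FPKM + 1). The call of *Trim28* was lost in 5 of the 9 fits that left out 1 library and that of *Suv39h1* in 3, and that of *Zfp57* in 0.

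The 3 lines shared the J1 ESC background. WT ESCs carried intact *Dnmt1*, 1KO ESCs were *Dnmt1*-/-, and 1KO+1CI ESCs were the same *Dnmt1*-/- cells carrying a transgene for DNMT1CI, a catalytically inactive C1229S mutant of DNMT1, under the ubiquitously active CAG promoter. ESCs were grown on mitotically inactive embryonic fibroblast feeders with LIF and serum (day 0), and were differentiated toward epiblast-like cells (EpiLCs) through embryoid bodies without LIF, with sampling on days 2 and 4. There was 1 library for each of the 9 combinations of line and day, so no condition has a replicate, and the transgenic line was represented by a single column although the study established more than 1 clone. The comparisons of both mutant lines with WT share the WT libraries. Messenger RNA was measured in bulk, so that fewer cells expressing a gene and less RNA per cell cannot be told apart.

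Retroviral copies in the mouse genome are recognised by KRAB zinc finger proteins, which bind the corepressor TRIM28 (KAP1). TRIM28 brings in SETDB1, which trimethylates lysine 9 of histone H3 (H3K9me3), a mark read by HP1 proteins such as CBX5. In ESCs this pathway is known to hold IAP elements silent together with DNA methylation, while SUV39H1 acts mainly at pericentric heterochromatin, EHMT1 and EHMT2 write H3K9 dimethylation, ATRX and DAXX deposit the histone variant H3.3, and HELLS remodels nucleosomes and is needed for normal DNA methylation at repeats.

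The libraries held between 20100000 and 27700000 counted reads, if 1 step of the FPKM scale is 1 read. On that reading, the members rested on 604 to 61086 reads per library, and the 95% counting error of a difference between libraries was at most 0.16 in log2. These reads also depend on taking the shortest RefSeq-linked transcript as the length of a gene. For *Cbx5* such transcripts run from 1146 to 8803 bases. *Dnmt1* was listed at 74.0, 80.4 and 48.5 FPKM in WT, at 13.7, 17.4 and 12.3 FPKM in 1KO and at 315, 129 and 158 FPKM in 1KO+1CI on days 0, 2 and 4, and these levels follow the line labels. The pluripotency marker *Pou5f1* was present in all 9 libraries at 632 to 1008 FPKM. Feeder fibroblast RNA was highest on day 0, when the 7 measured markers summed to 90.8 FPKM (WT), 176 FPKM (1KO) and 198 FPKM (1KO+1CI), against 11.9 to 25.9 FPKM on days 2 and 4. Since no listed gene had a value of 0 in any library, a value above 0 for these 7 does not by itself show feeder RNA in a library. An eighth marker, *Lum*, was not among the genes listed. The 6 pluripotency markers summed to 1394 FPKM (WT), 1691 FPKM (1KO) and 1693 FPKM (1KO+1CI) on day 0, and to 896 to 1184 FPKM on day 4. The 12 proliferation markers summed to 1243 to 1791 FPKM over the libraries.

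Over the listed copies, which all had signal in every library, IAPEz-int was low in every WT library and higher in every mutant library. The mean over its copies was 0.727, 0.792 and 0.563 FPKM in WT on days 0, 2 and 4. It was 7.14, 4.70 and 17.1 FPKM in 1KO and 2.26, 4.62 and 23.4 FPKM in 1KO+1CI. The 2 mutant lines were therefore apart on day 0, when all 426 copies had less signal in 1KO+1CI than in 1KO, close on day 2, and both far above WT on day 4, when the mean was 30.3-fold WT in 1KO and 41.6-fold WT in 1KO+1CI. FPKM scales the reads of a transcript or repeat copy by its length and by the size of the library. Levels can therefore be compared between genes only as far as the length used for each gene holds, and those lengths were not stated. Differences were taken on the scale of log2(FPKM + 1), which understates changes of low features such as IAPEz-int in WT. A difference of at least 0.5 on that scale was used as the size of interest, and the share of all 13288 genes that reached it is given with each count.

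*Trim28* was the highest of the 10 genes in all 9 libraries, and its mean level exceeded that of 99.2% of the genes tested. *Hells* was in second place in 8 libraries, behind *Trim28*, and *Zfp57* took that place in WT on day 2. *Suv39h1* was the lowest member in the 6 libraries of days 0 and 2, and *Zfp57* was the lowest in the 3 libraries of day 4. Between these ends lay *Cbx5*, *Ehmt2*, *Daxx*, *Atrx*, *Setdb1* and *Ehmt1*, whose mean levels exceeded those of 76.2% to 89.4% of the genes tested. With 1 library a condition, the order of neighbours in this middle group cannot be set against a replicate spread. The place of *Cbx5*, with transcripts of 1146 to 8803 bases, also depends on the length used.

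**Figure D1:**
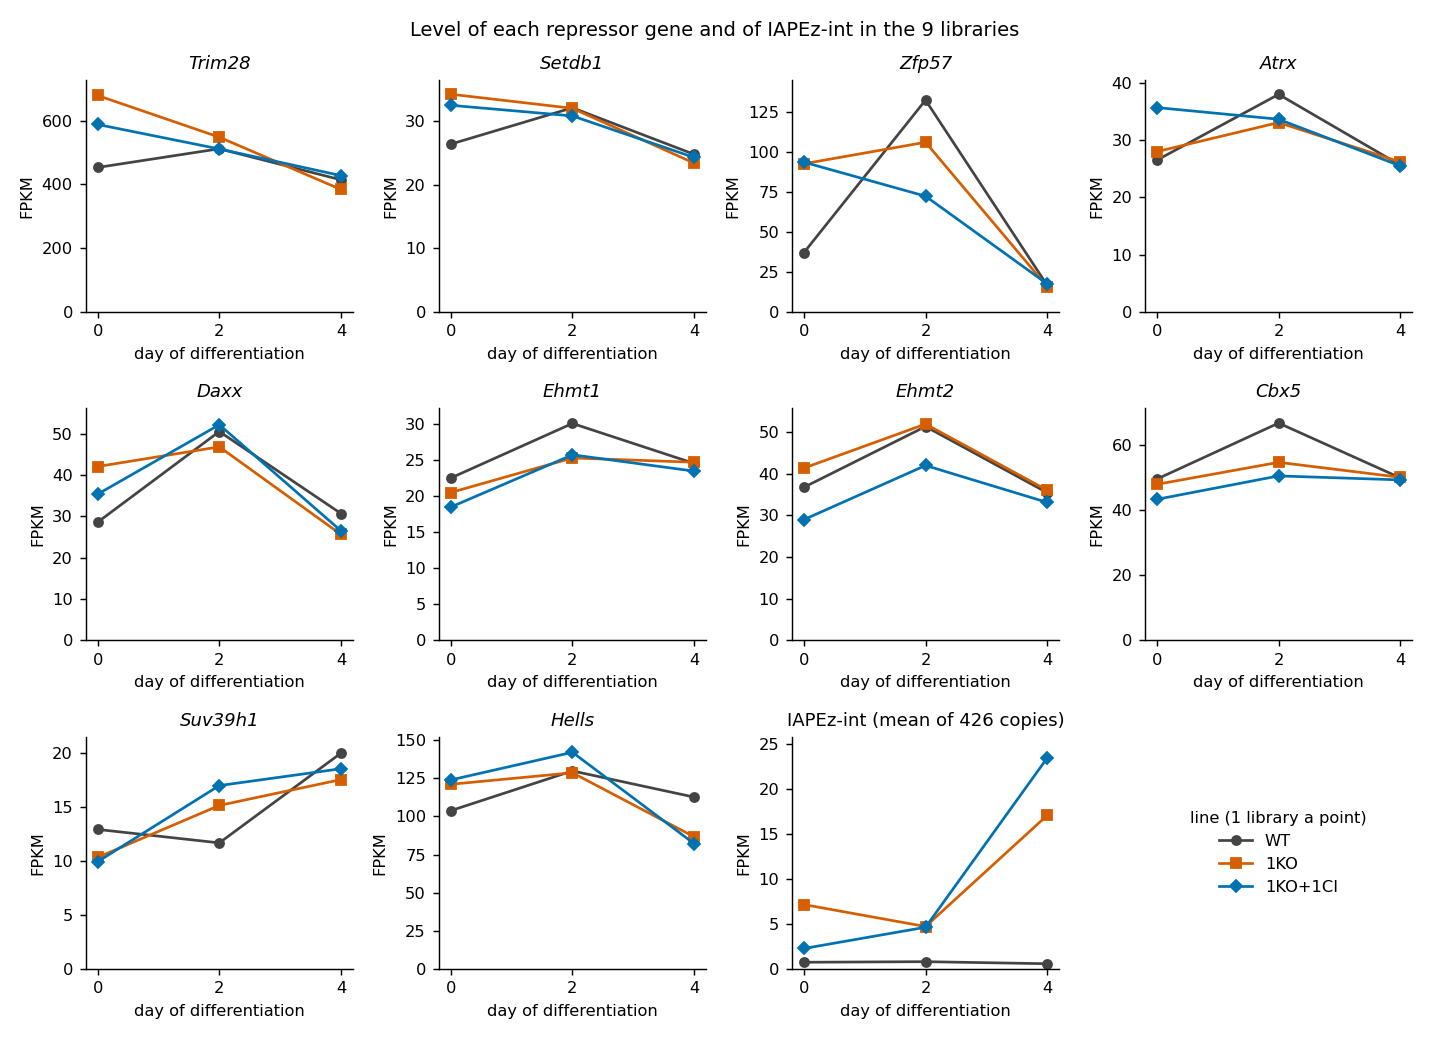
FPKM (vertical axis, from 0, linear) of the 10 repressor genes and mean FPKM of the 426 IAPEz-int copies against the day of differentiation, with 1 point for each library (grey circles WT, orange squares 1KO, blue diamonds 1KO+1CI). The 3 lines meet at 15.8 to 17.5 FPKM of Zfp57 on day 4. IAPEz-int is at 0.563 FPKM in WT and at 17.1 and 23.4 FPKM in the mutant lines on that day.

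The KRAB zinc finger arm held both the most abundant and the most variable member. *Zfp57*, which binds methylated imprinting control regions and recruits TRIM28 there, lies at chr17:37001163-37010635 on the plus strand (mm10). It was listed at 37.0 FPKM (WT), 92.7 FPKM (1KO) and 93.6 FPKM (1KO+1CI) on day 0, at 132, 106 and 72.4 FPKM on day 2, and at 16.7, 15.8 and 17.5 FPKM on day 4. The WT library was the lowest of its day on day 0 and the highest on day 2, and the 3 lines were close on day 4. Its range over the 9 libraries was 2.99 in log2(FPKM + 1), larger than that of 98.5% of the genes tested. The ranges of the other 9 members lay between 0.53 and 1.00, and the median over all 10 members was 0.80 against 0.84 over all genes tested.

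*Trim28*, at chr7:12999114-13031035 on the plus strand, encodes the shared corepressor. Its level was 453 FPKM (WT), 679 FPKM (1KO) and 588 FPKM (1KO+1CI) on day 0, then 512, 548 and 511 FPKM on day 2, and 414, 384 and 428 FPKM on day 4. The highest value was that of 1KO on day 0 and the lowest that of 1KO on day 4. *Setdb1*, the enzyme that trimethylates H3K9 and is recruited by TRIM28, is at chr3:95323525-95357202 on the minus strand. It was listed at 26.3, 34.2 and 32.5 FPKM in WT, 1KO and 1KO+1CI on day 0, at 32.1, 32.0 and 30.8 FPKM on day 2, and at 24.7, 23.4 and 24.3 FPKM on day 4. Its exons overlap those of *Cers2* and *Gm37500* on the opposite strand, and the strand setting of the counts was not stated. The ratio of *Trim28* to *Setdb1* FPKM varied little, between 16.0 and 19.9, whereas the ratio of *Trim28* to *Zfp57* FPKM ran from 3.86 in WT on day 2 to 24.9 in WT on day 4. Over the 9 libraries, Pearson's r of log2(FPKM + 1) was 0.97 between *Setdb1* and *Zfp57* and 0.95 between *Trim28* and *Setdb1*, the highest pair values among the members. These points share their lines and days, and the values are descriptions of 9 libraries.

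Promoter sequence is shown for the 3 members that changed on day 4, as a description of their CpG content. None of the 3 was called between lines. Each is the 250 bases before a RefSeq start site (GRCm38.p6), 5′ to 3′ on the strand of the gene, with every CpG in capitals. The windows are chr17:37000913-37001162 (plus strand, the most upstream of 3 start sites) for *Zfp57*, chr7:13023902-13024151 (plus strand, within an intron of a longer annotated transcript) for *Trim28*, and chrX:8074761-8075010 (minus strand, the more upstream of 2 start sites) for *Suv39h1*.
Zfp57: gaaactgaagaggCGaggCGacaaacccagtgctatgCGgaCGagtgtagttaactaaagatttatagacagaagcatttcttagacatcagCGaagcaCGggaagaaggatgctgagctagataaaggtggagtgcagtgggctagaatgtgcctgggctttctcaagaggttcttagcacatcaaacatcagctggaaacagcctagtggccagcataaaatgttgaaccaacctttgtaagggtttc
Trim28: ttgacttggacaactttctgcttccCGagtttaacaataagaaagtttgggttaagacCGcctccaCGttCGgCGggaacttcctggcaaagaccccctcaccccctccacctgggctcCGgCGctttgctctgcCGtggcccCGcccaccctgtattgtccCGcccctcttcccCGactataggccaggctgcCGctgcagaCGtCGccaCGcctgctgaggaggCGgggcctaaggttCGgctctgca
Suv39h1: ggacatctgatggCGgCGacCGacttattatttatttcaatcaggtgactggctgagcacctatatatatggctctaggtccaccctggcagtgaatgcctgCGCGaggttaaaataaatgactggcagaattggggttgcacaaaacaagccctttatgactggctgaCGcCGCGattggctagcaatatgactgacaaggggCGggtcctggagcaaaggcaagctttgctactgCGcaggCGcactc
These windows hold 6 CpGs for *Zfp57*, 17 for *Trim28* and 11 for *Suv39h1*. The other start sites of *Zfp57* have 3 and 7 CpGs, and the other start site of *Suv39h1* has 25. RefSeq promoters were matched for all 10 members, at 17 start sites, and those of the members other than *Zfp57* held 6 to 36 CpGs in the same span. The median over 32851 promoters was 6 CpGs, with an interquartile range of 2 to 16. Methylation of these windows was not analysed here.

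HP1 and the pericentric methyltransferase took different courses. *Cbx5* (HP1 alpha, chr15:103191544-103239816, minus strand) was at 49.6 (WT), 48.0 (1KO) and 43.4 (1KO+1CI) FPKM on day 0, at 66.8, 54.8 and 50.6 FPKM on day 2, and at 50.0, 50.2 and 49.4 FPKM on day 4. WT on day 2 was the library that stood highest, and the 3 day 4 libraries were nearly level. *Suv39h1* (chrX:8061171-8074760, minus strand) was at 12.9, 10.3 and 9.95 FPKM on day 0, at 11.7, 15.2 and 17.0 FPKM on day 2, and at 20.0, 17.6 and 18.6 FPKM on day 4. All 3 day 4 libraries were above all other libraries. An exon of *Gm14820* on the opposite strand overlaps *Suv39h1*. *Suv39h1* had the lowest pair value with *Trim28*, at r = -0.79 over the 9 libraries.

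The paired enzymes that write H3K9 dimethylation were both highest on day 2. *Ehmt1* (GLP, chr2:24789928-24919614, minus strand) was at 22.5, 20.5 and 18.5 FPKM in WT, 1KO and 1KO+1CI on day 0, at 30.1, 25.3 and 25.7 FPKM on day 2, and at 24.6, 24.7 and 23.5 FPKM on day 4. *Ehmt2* (G9a, chr17:34898469-34914052, plus strand) was at 36.7, 41.3 and 28.9 FPKM on day 0, at 51.3, 51.9 and 41.9 FPKM on day 2, and at 35.4, 36.0 and 33.1 FPKM on day 4. On each of the 3 days, 1KO+1CI had the lowest *Ehmt2* level. *Ehmt1* shares exonic sequence with *Gm37139* on the same strand, so its reads may be split. The ratio of *Ehmt2* to *Ehmt1* FPKM lay between 1.41 and 2.05, and 1KO had the highest ratio on each of the 3 days.

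The highest library of each H3.3 chaperone gene was also from day 2. *Atrx* (chrX:105797615-105929403, minus strand), a chromatin remodeller, was at 26.5, 28.0 and 35.7 FPKM in WT, 1KO and 1KO+1CI on day 0, at 38.0, 33.1 and 33.7 FPKM on day 2, and at 25.6, 26.2 and 25.5 FPKM on day 4. *Daxx* (chr17:33909414-33915590, plus strand), its chaperone partner, was at 28.6, 42.0 and 35.3 FPKM on day 0, at 50.5, 46.8 and 52.1 FPKM on day 2, and at 30.7, 25.6 and 26.5 FPKM on day 4. The day 2 libraries were above all others for *Daxx*. For *Atrx* they overlapped day 0 through 1KO+1CI. The ratio of *Daxx* to *Atrx* FPKM ran from 0.977 to 1.55.

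*Hells* (LSH, chr19:38930915-38971051, plus strand), an SNF2-family remodeller, was at 104, 121 and 124 FPKM in WT, 1KO and 1KO+1CI on day 0, at 130, 129 and 142 FPKM on day 2, and at 113, 86.7 and 82.2 FPKM on day 4. The mutant lines were above WT on day 0 and below it on day 4.

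The first question was whether these genes differed between 1KO and WT, where IAPEz-int was higher by 2.52, 1.87 and 3.72 in median log2(FPKM + 1) on days 0, 2 and 4. On day 0, 3 of the 10 members differed by at least 0.5, as did 23.4% of all genes. They were *Zfp57* (1.30), *Trim28* (0.58) and *Daxx* (0.54), all higher in 1KO. With scaling to a common sum (TPM), *Daxx* was at 0.496 and the count was 2. On day 2 and on day 4, 0 members reached that size, against 15.9% and 14.2% of all genes, and the member farthest from 0 was *Suv39h1* on day 2 (0.35) and *Hells* on day 4 (-0.38). IAPEz-int was highest in 1KO on day 4, and its relation to the levels of the members was not tested. Feeder markers were higher in both mutant libraries than in WT on day 0, and their part in the day 0 differences was not tested.

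The second question was whether the inactive enzyme was accompanied by other levels of these genes, by comparing 1KO+1CI with 1KO. IAPEz-int differed by -1.40 on day 0, by -0.02 on day 2 and by 0.45 on day 4. On day 0, 0 of the 10 members differed by 0.5, against 6.7% of all genes, and the largest difference was that of *Ehmt2* at -0.50, just inside the limit, and past it with a pseudocount of 0.1 or 0.01. The next were *Atrx* (0.34) and *Daxx* (-0.24). On day 2, *Zfp57* was lower by 0.55 and was the only member to reach 0.5, against 4.38% of all genes. On day 4, 0 members reached it, against 8.65% of all genes, and all 10 lay between -0.12 and 0.15.

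Set against WT, 1KO+1CI had *Zfp57* higher by 1.31 on day 0, as the only member to reach 0.5, against 24.6% of all genes. On day 2, *Zfp57* was lower by 0.86 and *Suv39h1* higher by 0.51, so that 2 members reached it, against 19% of all genes, and 1 did so with median-ratio scaling. On day 4, 0 members reached it, against 21% of all genes. IAPEz-int was 4.17 higher in 1KO+1CI than in WT on that day. The members' median difference was 0.27, -0.11 and -0.04 on days 0, 2 and 4.

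**Figure D2:**
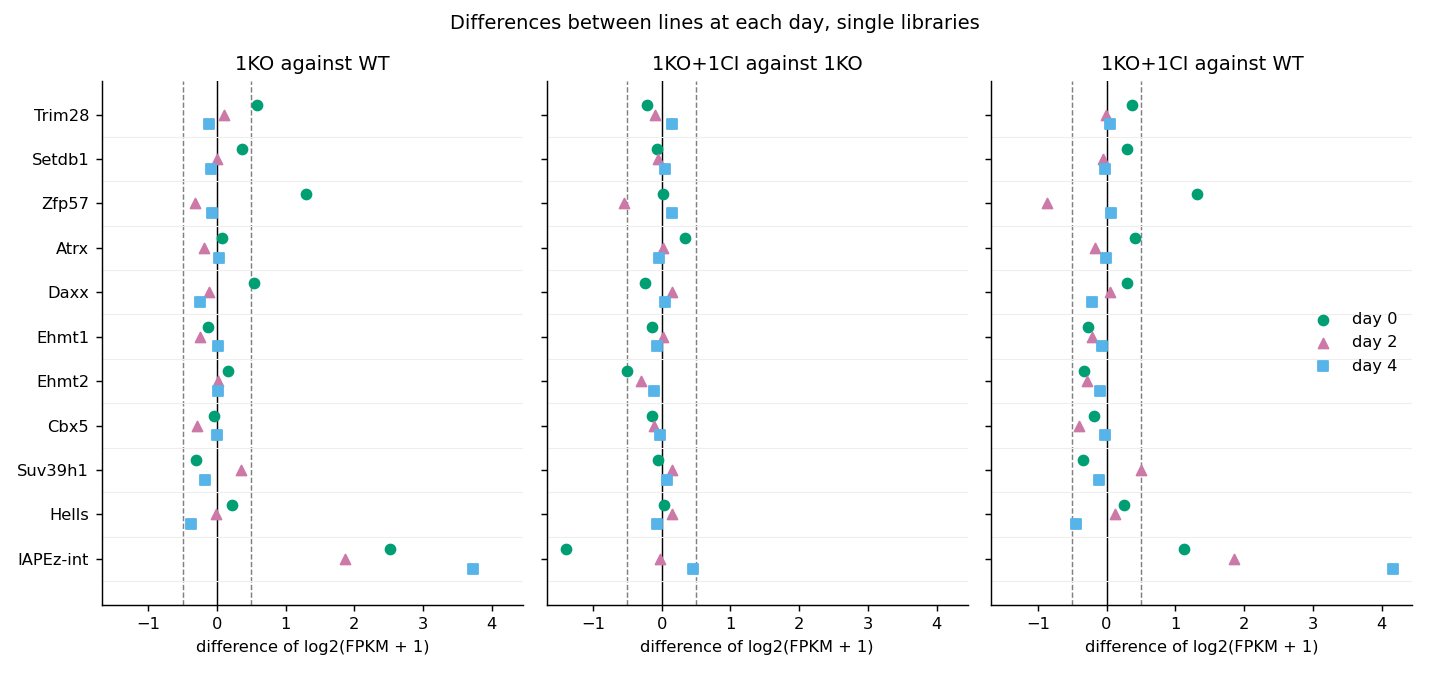
Difference in log2(FPKM + 1) between lines (horizontal axis, panels for the 3 comparisons) for each repressor gene and for the median of IAPEz-int, on days 0 (circles), 2 (triangles) and 4 (squares). Each point compares single libraries and the dashed lines mark -0.5 and 0.5. Most members lie inside them, Zfp57 lies at 1.30 and 1.31 on day 0 against WT, and IAPEz-int lies between 1.12 and 4.17 against WT.

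To test the lines over all 3 days, a limma fit with terms for line and day was made on the 13288 genes. Its error is the variation of a line difference from day to day, with 4 residual degrees of freedom, and not the spread between cultures. A difference that is particular to 1 day, such as that of *Zfp57*, therefore counts as error. In this fit, 0 of the 10 members were called at an adjusted p under 0.05 in 1KO against WT, where 2.51% of all genes were called, and 0 had an unadjusted p under 0.05. In 1KO+1CI against 1KO, 0 members were called, and 0.00753% of all genes, which is *Dnmt1* alone (3.61, adjusted p = 0.00751 by limma). In 1KO+1CI against WT, 0 members were called and 4.82% of all genes were.

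*Ehmt2* was the only member with an unadjusted p under 0.05 in a line contrast. Of the 13288 genes, 491 had one in 1KO+1CI against 1KO and 2867 had one in 1KO+1CI against WT. Its fitted level in 1KO+1CI differed from that in 1KO by -0.31 (SE 0.10, limma, unadjusted p = 0.0140, adjusted p = 1.00), and from that in WT by -0.24 (unadjusted p = 0.0418, adjusted p = 0.211). With *Zfp57* left aside, the 95% intervals of the line differences of the other 9 members lay between -0.41 and 0.49 for 1KO against WT, that is 0.752-fold to 1.41-fold. For 1KO+1CI against 1KO they lay between -0.53 and 0.43, and for 1KO+1CI against WT between -0.46 and 0.44. Larger fitted differences are outside these unadjusted intervals, which cover variation from day to day and not the spread between cultures. For *Zfp57* the intervals were wider and reached from -0.48 to 1.09 for 1KO against WT. Without the 3 day 0 libraries, an alternative chosen after seeing the feeder markers, 0 members were called in each of the 3 line contrasts.

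Differences between days were larger. From day 0 to day 2, 3 members differed by at least 0.5 in WT, namely *Zfp57* (1.81), *Daxx* (0.80) and *Atrx* (0.50), against 28.8% of all genes. In 1KO, 1 member did so, *Suv39h1* (0.51), against 22.7% of all genes. In 1KO+1CI there were 3, *Suv39h1* (0.72), *Daxx* (0.55) and *Ehmt2* (0.52), against 24.5% of all genes. All these differences were upward. Members close to 0.5 fell on either side of it, such as *Ehmt2* at 0.47 in WT, and with median-ratio scaling the count in 1KO+1CI was 1. Differences between lines in these day values were not tested. The day 2 value of *Zfp57* minus that of day 0 was 1.81 (WT), 0.19 (1KO) and -0.37 (1KO+1CI).

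From day 0 to day 4, *Zfp57* was lower in each line, with differences of -1.11 (WT), -2.48 (1KO) and -2.35 (1KO+1CI). *Suv39h1* was higher in each line, by 0.59, 0.71 and 0.84. In WT these 2 were the only members to reach 0.5, against 28.3% of all genes. In 1KO, 5 members did so, against 31.6% of all genes, with *Trim28* (-0.82), *Daxx* (-0.69) and *Setdb1* (-0.53) lower as well. In 1KO+1CI, 3 members did so, against 33.6% of all genes, the third being *Hells* (-0.59). The members' shares were thus close to or below the background except in 1KO on day 4.

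In the limma fit over the 3 lines, 2 members rose from day 0 to day 2, when 17.5% of all genes were called. These were the H3K9 dimethylation enzymes, *Ehmt2* (0.44, SE 0.10, adjusted p = 0.0218) and *Ehmt1* (0.38, SE 0.10, adjusted p = 0.0307), each higher on day 2 in 3 of 3 lines. *Daxx* had a larger value that missed the threshold (0.50, adjusted p = 0.0509). From day 0 to day 4, 3 members were called, when 25.8% of all genes were. *Zfp57* fell by 1.98 (SE 0.34, adjusted p = 0.00503), to 0.253-fold, and *Trim28* fell by 0.47 (SE 0.13, adjusted p = 0.0332), to 0.722-fold. *Suv39h1* rose by 0.71 (SE 0.16, adjusted p = 0.0147), to 1.64-fold. All 3 moved the same way in 3 of 3 lines. The fall of *Trim28* was larger in the mutant lines, at -0.82 for 1KO and -0.46 for 1KO+1CI. For WT it was -0.13, or 0.914-fold, so the pooled 0.722-fold does not describe WT. Whether the fall differed between lines was not tested. *Setdb1* was lower by a value that missed the threshold (-0.34, adjusted p = 0.0542).

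When each library was left out in turn, the fall of *Zfp57* kept its call in all 9 fits, with adjusted p between 0.000224 and 0.0329. The other calls depended on single libraries. That of *Trim28* was lost without 1KO day 0 (adjusted p = 0.141), 1KO+1CI day 0 (0.135), 1KO day 2 (0.0651), 1KO day 4 (0.157) or 1KO+1CI day 4 (0.0783). That of *Suv39h1* was lost without 1KO day 0 (0.0671), 1KO+1CI day 0 (0.083) or 1KO day 4 (0.0527). That of *Ehmt2* was lost without 1KO+1CI day 0 (0.0998), WT day 2 (0.0721), 1KO day 2 (0.11) or 1KO+1CI day 2 (0.0802). *Ehmt1* lost its call without these 4 libraries (0.103 to 0.125), without 1KO day 0 (0.0806) and without 1KO day 4 (0.0527). The directions of these 5 calls did not change in these fits. Feeder markers were lower on days 2 and 4 than on day 0 in all 3 lines, and their part in the day differences was not tested.

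**Figure D3:**
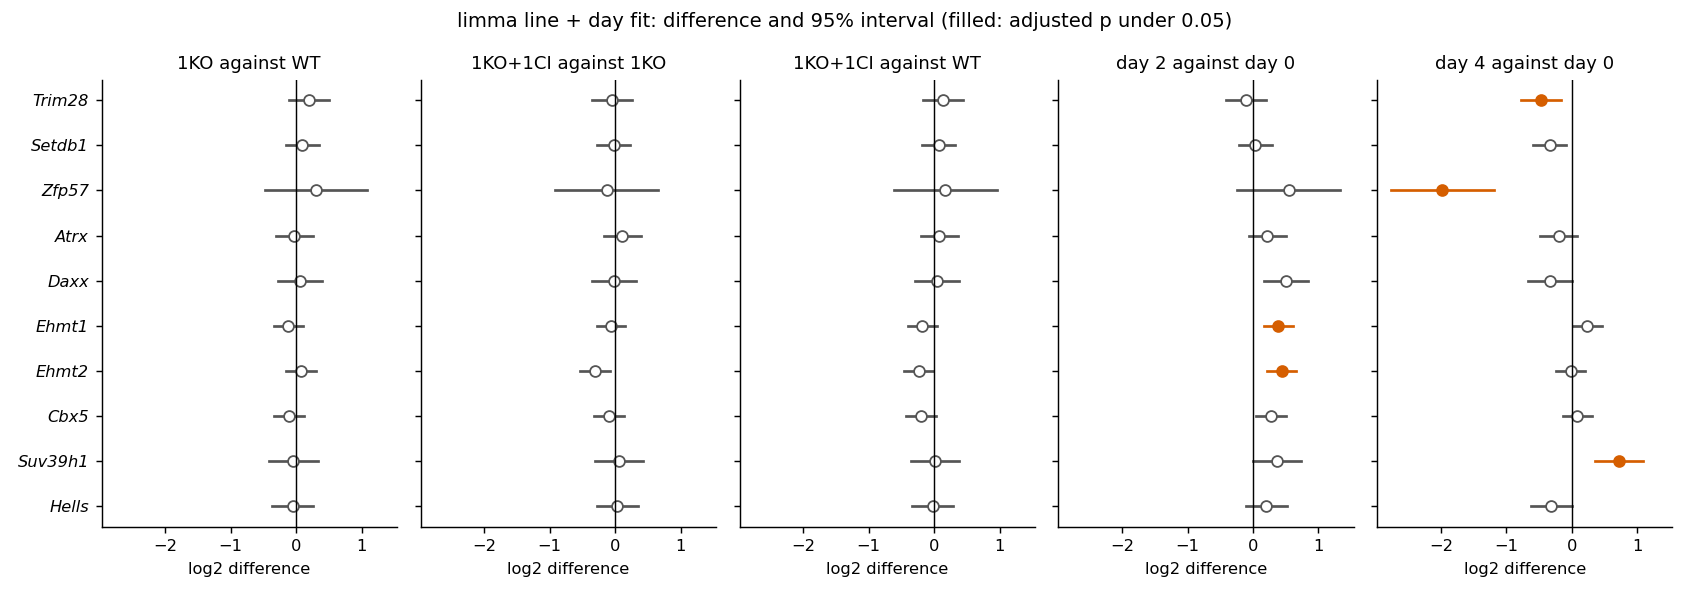
Difference (point) and 95% interval (bar) in log2(FPKM + 1) from the limma fit with terms for line and day, for each repressor gene in the 5 contrasts. Filled orange points had an adjusted p under 0.05. The 3 line contrasts hold none, day 2 holds Ehmt1 and Ehmt2, and day 4 holds Trim28, Zfp57 and Suv39h1.

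The levels of the members did not rank the 9 libraries as IAPEz-int did. Over the 9 libraries, Spearman's rho with the IAPEz-int median lay between -0.33 for *Hells* and 0.12 for *Suv39h1*, and 41.6% of all genes had a rho at least as far from 0 as that of *Hells*. Over the 6 mutant libraries alone, *Atrx* had rho = -1, with its level falling in the exact order in which IAPEz-int was higher, from 35.7 FPKM in 1KO+1CI on day 0 to 25.5 FPKM in 1KO+1CI on day 4. Among all genes tested, 51 (0.384%) had this order and 71 (0.534%) the opposite one. *Hells* had rho = -0.83 and *Suv39h1* rho = 0.77 over these 6 libraries. The others were *Zfp57* (-0.66), *Daxx* (-0.60), *Trim28* (-0.54), *Setdb1* (-0.54), *Ehmt2* (-0.09), *Ehmt1* (0.03) and *Cbx5* (0.09). The share of all genes with a rho as far from 0 as these values is not given here. The 6 points share lines and days, the 2 mutant libraries of day 4 had the highest IAPEz-int levels, and *Atrx* was singled out after its value was seen. WT, which carried intact *Dnmt1*, had *Atrx* at 25.6 FPKM and IAPEz-int at 0.563 FPKM on day 4. A part of *Atrx* in the IAPEz-int levels was not tested.

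Further genes of these pathways were described from lists of 58 genes, all of which were measured and tested. Between lines, 1 of the 58 was lower in 1KO than in WT at an adjusted p under 0.05 and 0 were higher, 0 differed between 1KO+1CI and 1KO, and 2 were higher and 2 lower in 1KO+1CI than in WT. The shares of all genes called in these contrasts were 2.51%, 0.00753% and 4.82%, so these counts were near the background. *Asf1b*, a histone chaperone active in S phase, was at 22.2, 26.0 and 17.6 FPKM in WT on days 0, 2 and 4, at 16.6, 15.2 and 10.2 FPKM in 1KO, and at 16.6, 13.4 and 12.1 FPKM in 1KO+1CI. It was lower in 1KO by 0.62 (SE 0.13, limma, adjusted p = 0.0470) and in 1KO+1CI by 0.61 (SE 0.13, adjusted p = 0.0353) than in WT. Both mutant lines were below WT on each day.

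*Zfp809*, a KRAB zinc finger protein known to recruit TRIM28 to murine leukaemia virus and VL30 elements, was at 8.44, 22.0 and 9.43 FPKM in WT, 16.3, 27.4 and 10.7 FPKM in 1KO, and 19.3, 30.6 and 14.6 FPKM in 1KO+1CI on days 0, 2 and 4. It was higher in 1KO+1CI than in WT by 0.71 (SE 0.15, adjusted p = 0.0360). *Atf7ip*, the partner that stabilises SETDB1, was higher by 0.52 (SE 0.10, adjusted p = 0.0291), at 25.6, 40.5 and 27.5 FPKM against 18.9, 26.7 and 18.3 FPKM in WT. *Gatad2a*, a subunit of the NuRD deacetylase complex, was lower by 0.43 (SE 0.09, adjusted p = 0.0411), at 40.4, 44.7 and 39.4 FPKM against 54.6, 65.8 and 49.3 FPKM in WT. With each library left out in turn, the call of *Zfp809* was lost in 6 of 9 fits, that of *Atf7ip* in 6, that of *Asf1b* in 8 for each mutant line and that of *Gatad2a* in 9. That of *Asf1b* in 1KO was also lost in 5 of 7 other alternatives, with adjusted p up to 0.122. Without the day 0 libraries, these 4 genes were not called either, with adjusted p between 0.0825 and 0.127.

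The remaining genes named in the lists were those at either end of the 1KO+1CI minus WT order. Among partners of TRIM28 and SETDB1 the lowest was *Zfp819* (-0.26). In the HUSH complex, which spreads H3K9me3 over transposons, *Pphln1* was highest (0.37) and *Morc2a* lowest (-0.02). Among H3.3 genes and chaperones, *H3f3b*, which encodes H3.3, was highest (0.37). The ends were *Setdb2* (0.17) and *Cdyl* (-0.16) for other H3K9 methyltransferases and partners of EHMT1 and EHMT2, *Cbx3* (0.04) and *Cbx1* (-0.15) for the HP1 paralogs, *Phf2* (0.09) and *Kdm4b* (-0.44) for H3K9 demethylases, *Cdca7l* (0.03) and *Cdca7* (-0.30) for partners of HELLS, and *Gatad2b* (0.16) beside *Gatad2a* for NuRD. None of the genes in this paragraph, apart from *Gatad2a*, passed the test in a line contrast. *H3f3b* and *Cbx3* have processed copies elsewhere in the genome with which they may share reads, so their values are uncertain.

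Between days, 14 of the 58 genes rose and 1 fell from day 0 to day 2, where 17.5% of all genes were called, 1150 upward and 1173 downward. From day 0 to day 4, 10 rose and 6 fell, where 25.8% of all genes were called, so that the day 4 count was near the background. On day 2 the calls included 5 of 12 TRIM28 and SETDB1 partners, all upward, among them *Zfp809* (0.88) and *Atf7ip* (0.60), and 3 of 4 HUSH genes, also upward, and these sublists were not tested against other genes. With 1 library left out, the calls of the 5 partners were lost in 0 to 7 of 9 fits, and among the HUSH genes that of *Pphln1* was lost in 5 and that of *Morc2a* in 7. *Cbx3* (-0.44, SE 0.11, adjusted p = 0.0259) was the gene that fell. On day 4, *Pphln1* rose by 1.92 (SE 0.20, adjusted p = 0.000611), from 13.2 to 15.3 FPKM on day 0 to 50.3 to 61.8 FPKM on day 4. *Zfp819* fell by 1.68 (SE 0.22, adjusted p = 0.00156), from 7.63 to 10.8 FPKM on day 0 to 1.60 to 2.89 FPKM on day 4. *Cdyl* fell by 0.86 (SE 0.14, adjusted p = 0.00384). The median over the 58 genes was 0.12 on day 2 and -0.04 on day 4, against 0.02 over all genes on both days. With each library left out in turn, between 2 and 19 of the 58 genes were called on day 2 and between 8 and 20 on day 4.

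**Figure D4:**
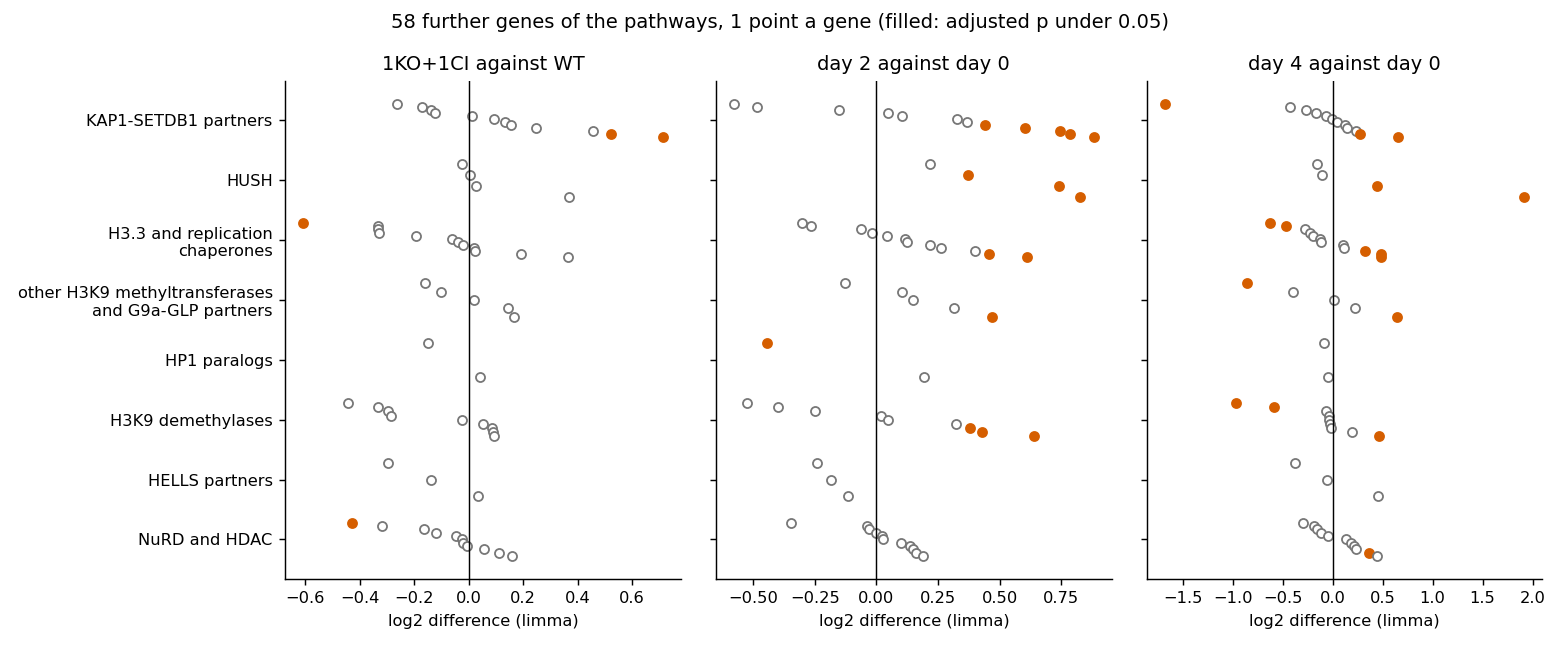
limma difference in log2(FPKM + 1) of the 58 further pathway genes, 1 point a gene, by list, for 1KO+1CI against WT, day 2 against day 0 and day 4 against day 0 (the horizontal scales differ between panels). Filled orange points had an adjusted p under 0.05. There are 4 such genes in the line panel, 15 on day 2 and 16 on day 4, with Pphln1 farthest to the right on day 4 at 1.92 and Zfp819 farthest to the left at -1.68.

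For each member, the gene with the most similar pattern was taken as that with the highest Pearson's r of log2(FPKM + 1) over the 9 libraries. For *Zfp57* it was *Camk1d* (r = 0.99), at 2.26 FPKM in WT on day 0, 6.00 FPKM in WT on day 2 and 1.11 FPKM in WT on day 4. For *Setdb1* it was *Rpp25* (0.99), for *Trim28* *Necab1* (0.98), for *Atrx* *Nabp1* (0.98), for *Daxx* *Zfp977* (0.99), for *Ehmt1* *Slc38a7* (0.98), for *Ehmt2* *Myl6b* (0.95), for *Cbx5* *Helz* (0.97), for *Suv39h1* *Bicdl2* (0.98) and for *Hells* *Bckdha* (0.97). *Necab1* lay between 0.135 and 1.15 FPKM, so its pattern rests on low values. Each is the highest of all genes tested, over 9 libraries that share lines and days.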

How the data were processed

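The 9 RNA-seq libraries cover the WT, 1KO and 1KO+1CI lines on days 0, 2 and 4, with no replicate. The values are FPKM as deposited by the authors, who used Trim Galore on the paired reads, HISAT2 for alignment to mm10, and analyzeRepeats.pl of HOMER for counting per gene and per repeat copy. Their tool versions, annotation, strand setting and rule for multiply aligned reads were not given in the sources used here. A repeat copy or a gene with near-identical copies can therefore gain or lose reads in ways that FPKM does not show. Of 15095 gene entries, 20 carrying a date in place of a symbol and 1 named 0 were left out, and these held up to 0.117% of the FPKM of any library. Depth was recovered from the steps of the FPKM values and depends on 1 step being 1 read. In simulated data the recovery returned depth ratios of up to 1.32 and missed a ratio of 1.53, and in the deposited tables, where the largest ratio to WT day 0 was 1.361, each of the 9 libraries as reference gave the same ratios. Intervals from it cover counting error only.

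Single libraries were compared as differences in log2(FPKM + 1), without a test, in 15 comparisons. Line and day contrasts (5) were tested with limma 3.58.1 in R 4.3.3 (line + day, intensity trend, two-sided, Benjamini-Hochberg adjustment over 13288 genes with at least 1 FPKM in some library). The fit has 4 residual degrees of freedom and assumes additive line and day effects. The simulated data it was tested on held no day effects and no line differences that varied by day, so that assumption was not tested. Alternatives were pseudocounts of 0.1 and 0.01, scaling to a common sum (TPM), median-ratio scaling, no filter, no trend, and leaving out each library.

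The members and the gene lists were chosen with earlier results of these data known. Named genes are the 10 members, *Dnmt1*, the listed pathway genes called in a line contrast or at either end of their list by 1KO+1CI minus WT, and the gene most alike each member. Others were chosen after their values were seen. Gene positions are from GENCODE M21 and promoter sequences from RefSeq (GRCm38.p6). Python 3.11.15, numpy 2.4.6, pandas 2.3.3, scipy 1.17.1 and matplotlib 3.10.9 were used.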

Additional observations from a re-analysis of the deposited data

Results flagged for a closer look

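*Zfp57* was the member whose difference between 1KO+1CI and WT had opposite signs at a size of at least 0.5 on different days. It was 1.31 higher in 1KO+1CI on day 0 (93.6 against 37.0 FPKM) and differed by -0.863 on day 2 (72.4 against 132 FPKM), in log2(FPKM + 1). The value as computed was 1.315 on day 0. Each difference rests on 1 library a line, and the difference between the days was not tested.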

How the results depend on the processing

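The count of members called by limma in the 3 line contrasts was 0 under every alternative run, including each library left out. On day 2 against day 0 it was 2, and 4 under scaling to a common sum (TPM), where *Daxx* and *Cbx5* were added; with each library left out it ranged from 0 to 3. On day 4 against day 0 it was 3 and ranged from 1 to 6 with each library left out. Of the 15 counts of members that differed by at least 0.5, 3 moved by more than 1.5 times. That of 1KO+1CI against 1KO on day 0 was 0 and became 1 with a pseudocount of 0.1 and 1 with a pseudocount of 0.01, through *Ehmt2*. With median-ratio scaling, that of 1KO+1CI against WT on day 2 became 1 in place of 2, and that of day 2 against day 0 in 1KO+1CI became 1 in place of 3. Of 600 member differences recomputed, 549 moved by less than their counting error, and no called difference changed sign. The background shares lay between 4.38% and 33.6%, and between 12.3% and 42.4% with a pseudocount of 0.01. A smaller pseudocount widened the IAPEz-int differences from WT. No paired analysis was possible because every library carries the replicate number 1, apart from the comparison of lines within days that the limma terms for line and day already make.

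Leaving out a library reduces the residual degrees of freedom and leaves a condition without a value. The counting error of a member difference was at most 0.16 in log2, below the size of 0.5, and the spread between cultures of a condition was not measured.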

Other observations

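Among the 58 pathway genes, *Sumo2*, which encodes a modifier used by TRIM28, had an irregular pattern and was singled out after its values were seen. It was listed at 149, 204 and 18.2 FPKM in WT, 1KO and 1KO+1CI on day 0, at 20.5, 101 and 80.8 FPKM on day 2, and at 29.5, 161 and 161 FPKM on day 4. High and low libraries occurred in WT and in 1KO+1CI, and on each day. *Sumo2* has near-identical processed copies, and how reads were shared among them was not stated.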
